A study of Mus musculus with 18 samples.

Results

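The comparison described here sets the hippocampus of male C57BL/6J mice after 28 daily sessions of intermittent hypoxia treatment (IHT), the group IH28D, against the hippocampus of the starting control mice, the group Ctrl. IHT lowered the inspired oxygen to 5% with 1 min of nitrogen and returned it to 21% with 2 min of room air, in 3-min cycles for 8 h a day, and the IH28D mice were killed right after their last session. The age at which the experiment began was 10 weeks. Ctrl mice received neither IHT nor the 28-day stay, so that in this comparison the treatment cannot be told apart from the 28 days of housing, handling and ageing. The hour at which Ctrl mice were killed was not given in the sources used here. A further group, Ctrl28, stayed 28 days in room air without IHT, and its values are given beside the results, as are those of IH5D, which had 5 days of IHT. The 2 groups compared hold 3 arrays each, 6 of the 18 arrays of the series. Every array is an Affymetrix Mouse Genome 430 2.0 hybridisation of hippocampal RNA, and the unit throughout is the MAS5 signal, a brightness in arbitrary units scaled so that the trimmed mean of each array is 100. The study describes the profiles of a group as 3 independent GeneChip experiments, but does not say plainly that the arrays came from separate mice. P-values thus measure the spread between arrays, which may be technical.

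Hippocampal neurons depend on oxidative phosphorylation, and cycles of falling and returning oxygen resemble what the brain meets in sleep apnea. Low oxygen stabilises Hif1a, a transcription factor subunit that pairs with Arnt and switches on genes of glycolysis, glucose uptake and vessel growth, while reoxygenation adds oxidative and protein-folding stress that cells meet with peroxidases and endoplasmic reticulum chaperones. The study asked in particular about tau, the microtubule protein encoded by Mapt, about the kinases and the phosphatase that act on it, and about synaptic proteins.

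After 28 days of IHT the hippocampus held more RNA of splicing and chromatin regulators, of neuronal RNA-binding proteins, of nuclear long noncoding RNAs and of long genes for adhesion molecules and ion channels than the starting controls did. In the fit of all arrays it held less RNA of respiratory chain subunits, of ribosomal proteins of both kinds and of the proteasome. Without Ctrl array 2, most of the genes behind these lower levels no longer passed the test given next. In all, 1980 of 11656 genes rose (17.0%) and 1740 fell (14.9%) at a Benjamini-Hochberg adjusted p below 0.05 in limma, which is what rose and fell mean below. Of these, 617 genes (5.29%) were higher and 78 (0.669%) lower by more than 1 on the log2 scale. The median log2 fold change was 0.84 among genes that rose and -0.59 among genes that fell. Over single probe sets, the groups of oligonucleotides that each target a transcript, 4540 of 22932 rose (19.8%) and 2675 fell (11.7%). A gene is represented by its brightest probe set that is annotated to it alone.

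The split between rises and falls moved with the scaling and with single arrays. The median log2 fold change of all genes was -0.13 on the deposited scale, and when each array was centred on its median log2 signal it was -0.25, with 1632 genes higher and 2553 lower. Thus 53.2% of the calls were higher on the deposited scale and 39% after centring, 48.1% after quantile normalization, 62.5% without IH28D array 2 and 67.3% without Ctrl array 2. The direction of a group whose median lies near 0 is therefore not given. Arrays differed too. Ctrl array 2 was the lowest Ctrl array in 1196 of the 1980 genes that rose, Ctrl array 1 in 92, and IH28D array 2 was the highest IH28D array in 1290. Without IH28D array 2 the counts were 1073 and 643, and without Ctrl array 2 they were 1025 and 497. Genes called the same way in each of the 6 fits that leave out 1 IH28D or Ctrl array are called stable below. They numbered 890 among those that rose (7.64% of all genes) and 411 among those that fell (3.53%). The 3 IH28D and the 3 Ctrl arrays did not overlap in 6133 of 11656 genes (52.6%), so a lack of overlap was common. The median signal was 20.3 to 23.1 on IH28D arrays and 19.3 to 20.1 on Ctrl arrays, and the log2 difference between 3' and 5' control probe sets, a measure of RNA integrity, was 0.33 to 0.42 in IH28D and 0.34 to 0.47 in Ctrl. On the Ctrl28 arrays it was 2.39, 0.82 and 0.97, each above every IH28D and Ctrl array. Comparisons with Ctrl28 thus set arrays of unlike RNA quality side by side. Correlations between arrays over all probe sets were 0.886 to 0.889 within IH28D, 0.883 to 0.893 within Ctrl and 0.855 to 0.889 between them. Hippocampal markers were present on all 6 arrays. Of CA1 and pyramidal markers, Spink8 had 227 to 264 in IH28D and 243 to 358 in Ctrl, Wfs1 588 to 671 in IH28D and 757 to 846 in Ctrl, Fibcd1 183 to 255 in IH28D and 278 to 325 in Ctrl, and Neurod6 654 to 713 in IH28D and 490 to 656 in Ctrl. Of dentate markers, Dsp had 237 to 262 in IH28D and 210 to 277 in Ctrl, the dim Prox1 60.7 to 76.0 in IH28D and 62.4 to 80.9 in Ctrl, C1ql2 193 to 235 in IH28D and 333 to 419 in Ctrl, and Dock10 391 to 459 in IH28D and 198 to 258 in Ctrl. Markers of 1 cell type thus differed between the groups in opposite directions.

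The 12 largest rises, named by a rule that asked for groups that do not overlap and for a mean of 100 or more in the group with the higher signal, were 3.24- to 3.92-fold. Several of them encode factors that act on messenger RNA. Prpf39, a factor of the U1 small nuclear ribonucleoprotein, had signals of 106, 175 and 89.6 in IH28D, against 38.1, 23.9 and 32.9 in Ctrl (log2 fold change 1.93, SE 0.35, adjusted p = 0.00156). Clk1, a kinase that phosphorylates the SR proteins of the spliceosome, stood at 477, 746 and 386 in IH28D and at 206, 136 and 134 in Ctrl (1.73, SE 0.35, adjusted p = 0.00266). For Pnn, a nuclear protein bound to spliceosomes, the values were 234, 364 and 206 in IH28D and 96.3, 71.4 and 74.8 in Ctrl (1.70, SE 0.28, adjusted p = 0.0011). By that rule the lowest IH28D array lay above the highest Ctrl array in all of these. IH28D array 2 was the highest of its group in each.

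Neuronal signalling genes were among the largest rises as well. Rgs17, which shortens signalling by inhibitory G proteins, had 274, 458 and 249 in IH28D against 116, 62.6 and 93.8 in Ctrl (1.84, SE 0.31, adjusted p = 0.00117). Fgf14, an intracellular partner of voltage-gated sodium channels, had 119, 234 and 138 in IH28D against 61.9, 37.6 and 43.5 in Ctrl (1.75, SE 0.36, adjusted p = 0.0031). Fxr1, an RNA-binding relative of the fragile X protein, had 153, 255 and 153 in IH28D against 83.8, 43.1 and 45.0 in Ctrl (1.73, SE 0.29, adjusted p = 0.00117). By the same rule the groups did not overlap for any of these. Ftx, a noncoding RNA of the X-inactivation centre, had 132, 192 and 173 in IH28D against 54.2, 33.0 and 68.0 in Ctrl (1.72, SE 0.38, adjusted p = 0.00432). The zinc finger gene Zfp932 had a log2 fold change of 1.75, and 3 transcripts to which no role is given here, 5031426D15Rik, A930013F10Rik and Gm13306, had 1.97, 1.90 and 1.89. The immediate early gene Fos is described with its family below and was the only one of the 12 that was not stable. Rgs17 and Gm13306 were the only members that were also higher in IH28D than in Ctrl28 (1.37, adjusted p = 0.0105, and 1.44, adjusted p = 0.0216). Ctrl28 array 1 was the lowest Ctrl28 array for 11 of the 12, so that the Ctrl28 means of these genes rest on that array in part.

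**Figure D1:**
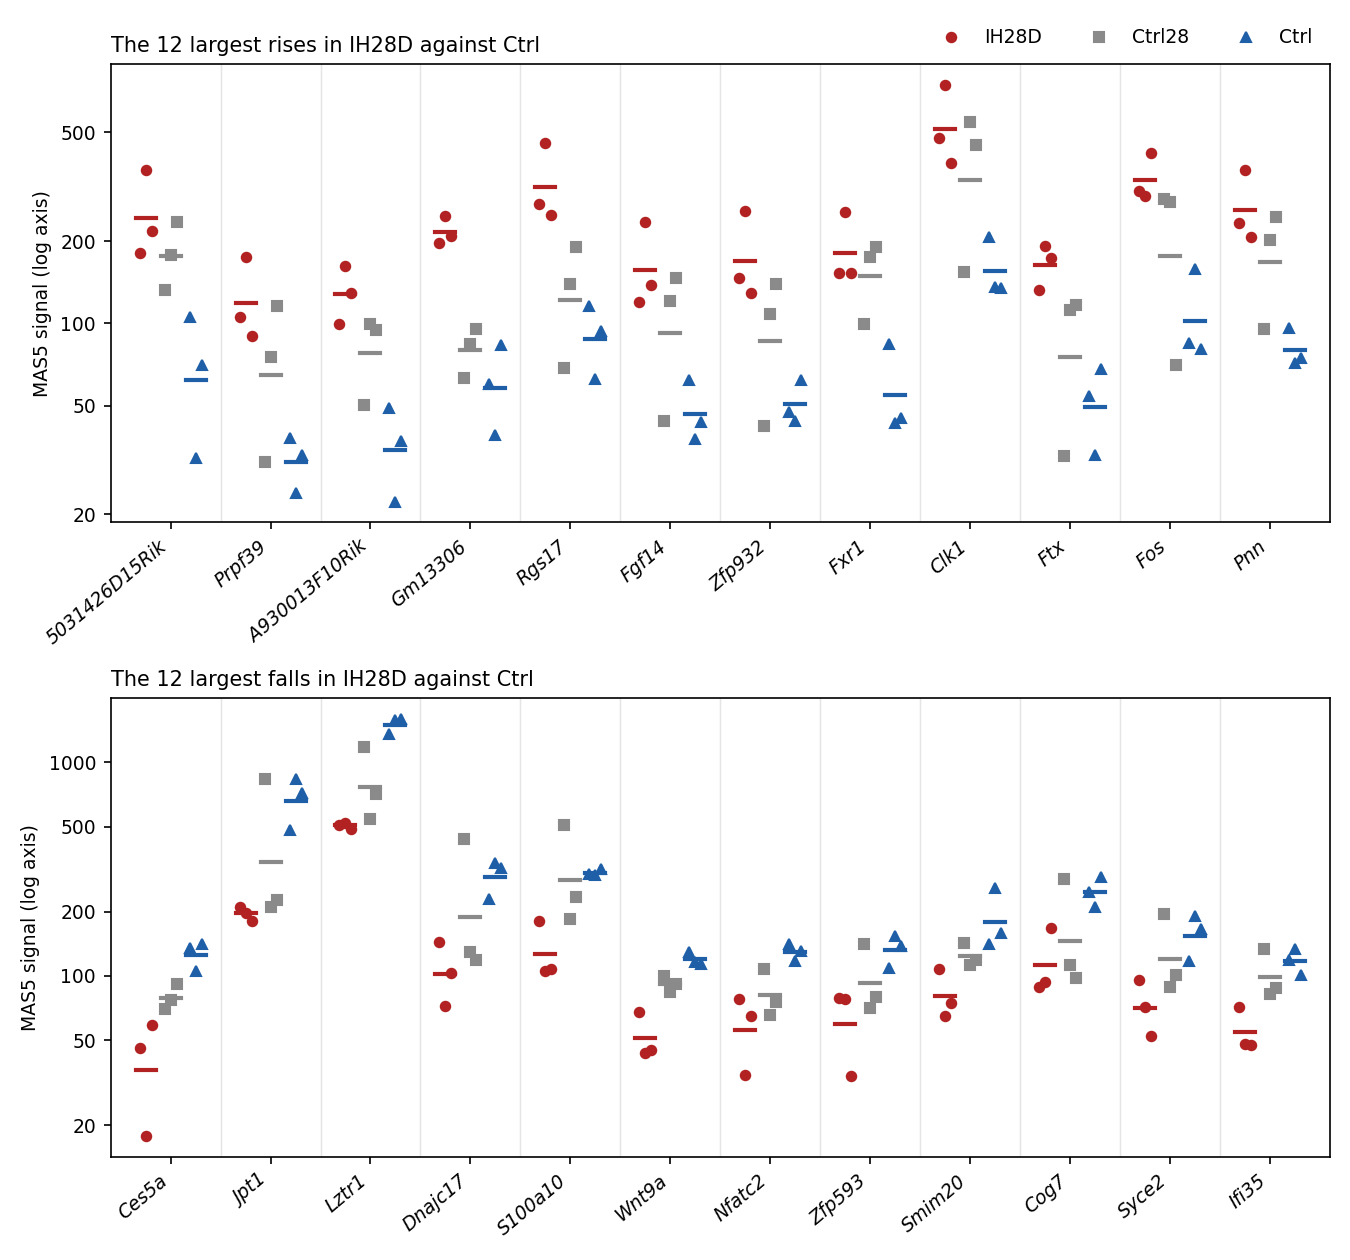
MAS5 signal (log axis) on each array for the 12 genes of largest rise (top) and the 12 of largest fall (bottom), with IH28D, Ctrl28 and Ctrl as 3 points each and a bar at the geometric mean. By the rule that chose them, no IH28D point lies within the Ctrl range, and Ctrl28 is drawn between them, where Prpf39 for example was at 74.0 ± 42.3 (SD, n = 3).

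Among 123 measured splicing factors 48 rose and 10 fell, against 17.0% and 14.9% of all genes, with a median log2 fold change of 0.23. Stable rises numbered 31, against 7.64% of all genes. Prpf4b, a spliceosomal kinase, had 253, 319 and 254 in IH28D against 128, 75.5 and 111 in Ctrl (1.42, SE 0.18, adjusted p = 0.000383). Hnrnpa2b1, which packages nascent transcripts, had 1714, 1816 and 1762 in IH28D against 1127, 932 and 980 in Ctrl (0.80, SE 0.11, adjusted p = 0.000461). Tra2a, a splicing regulator of the SR-like class, had 286, 336 and 354 in IH28D against 184, 166 and 167 in Ctrl (0.91, adjusted p = 0.000552), and Luc7l2, a U1 partner, rose by a log2 fold change of 1.41 (adjusted p = 0.000692). The 10 that fell included core spliceosome subunits, among them Snrpf, Prpf19, Prpf31 and Prpf8. Against Ctrl28 the median of the list was 0.06, and 8 members were higher and 4 lower in IH28D. Without Ctrl array 2, 32 splicing factors rose and 3 fell.

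Among chromatin genes the balance lay the same way, with 40 of 87 remodelers and histone-modifying enzymes higher and 5 lower (median 0.46). The shares of all genes were 17.0% and 14.9%. Sirt1, a histone and protein deacetylase that uses NAD, had 115, 113 and 82.5 in IH28D against 48.2, 31.9 and 25.1 in Ctrl (1.60, SE 0.29, adjusted p = 0.00176). Kmt2c, a histone H3 lysine methyltransferase, had 308, 434 and 396 in IH28D against 260, 138 and 152 in Ctrl (1.10, adjusted p = 0.00188). Kmt2e and the PHD finger gene Phf3 rose by 0.82 and 1.17. The 5 that fell were Kat5, an acetyltransferase, and the deacetylases Hdac3, Hdac5, Hdac6 and Hdac11. Of the rises, 20 were stable, and 22 members rose without Ctrl array 2. Against Ctrl28 the median was 0.31, with 11 members higher in IH28D and none lower.

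None of the 34 measured neuronal RNA-binding proteins fell and 16 rose, against 14.9% and 17.0% of all genes. The rises of 11 were stable, against 7.64% of all genes. The Hu proteins Elavl2, Elavl3 and Elavl4, which bind AU-rich messages and guide neuronal splicing, all rose. Elavl2 had 692, 925 and 706 in IH28D against 337, 314 and 346 in Ctrl (1.21, SE 0.15, adjusted p = 0.000383), and Elavl3 had 361, 377 and 401 in IH28D against 202, 177 and 189 in Ctrl (1.005, SE 0.14, adjusted p = 0.000532). Elavl3 averaged 182 ± 29.1 in Ctrl28 (SD, n = 3) and was also higher in IH28D than there (1.07, adjusted p = 0.000146), whereas Elavl2 averaged 627 ± 95.1 in Ctrl28 and did not pass against it (0.30, adjusted p = 0.229). The splicing regulator Mbnl2 had 991, 1383 and 1079 in IH28D against 618, 445 and 564 in Ctrl (1.08, adjusted p = 0.000932). Celf4, which represses translation of synaptic messages, rose by 0.85 (adjusted p = 0.00106). Mbnl2 and Celf4 averaged 1098 ± 258 and 1628 ± 293 in Ctrl28, near their levels in IH28D.

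Of 27 long noncoding RNAs 12 rose and 2 fell, against 17.0% and 14.9% of all genes, and 8 of the rises were stable. Meg3, an imprinted noncoding RNA of neurons, had 3185, 4354 and 3201 in IH28D against 1831, 1008 and 1361 in Ctrl (1.38, SE 0.19, adjusted p = 0.000492). All 10 further probe sets of Meg3 rose too. Snhg11, a host of small nucleolar RNAs, had 2528, 3588 and 2833 in IH28D against 1409, 778 and 1211 in Ctrl (1.43, adjusted p = 0.000569). Kcnq1ot1, which silences an imprinted cluster, had 124, 162 and 113 in IH28D against 61.3, 34.9 and 43.8 in Ctrl (1.53, adjusted p = 0.000902). A330023F24Rik rose by 1.45. The nuclear RNAs Malat1 and Neat1 were among the 12. Against Ctrl28 the median of this list was -0.09, and 2 of its members were higher in IH28D.

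Long neuronal genes were among those that rose. Of 50 long adhesion and synapse-organising genes 20 rose and 1, the cadherin Cdh13, fell, against 17.0% and 14.9% of all genes. The list median was 0.62, the highest among the lists plotted here, and 13 rises were stable. Ptprd, a receptor phosphatase that organises presynaptic terminals, had 834, 1076 and 907 in IH28D against 506, 296 and 445 in Ctrl (1.20, SE 0.20, adjusted p = 0.00105). Nlgn1, the postsynaptic neuroligin of excitatory synapses, had 269, 357 and 233 in IH28D against 143, 93.8 and 112 in Ctrl (1.30, adjusted p = 0.00152). Lsamp, a surface adhesion protein of limbic neurons, had 978, 1097 and 922 in IH28D against 619, 446 and 379 in Ctrl (1.08, adjusted p = 0.00134), although its second probe set had -0.015. Rbfox1, a neuronal splicing regulator encoded by a very long gene, rose by 1.06 (adjusted p = 0.00161). In Ctrl28 the means of Nlgn1, at 174 ± 57.5, and Ptprd, at 630 ± 80.2, lay between those of the groups (SD, n = 3), and the median of the list against Ctrl28 was 0.12, with 1 member higher in IH28D.

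Ion channel genes also rose more often than they fell. Of 29 sodium, calcium and HCN channel genes 12 rose and 1 fell (median 0.45), and of 32 potassium channel genes 10 rose and 1 fell (median 0.18). The shares of all genes were 17.0% and 14.9%. Kcnma1, the BK channel, had 213, 300 and 274 in IH28D against 169, 70.2 and 84.2 in Ctrl (1.38, SE 0.31, adjusted p = 0.00441). Kcnq3, a subunit of the M-current, had 490, 746 and 562 in IH28D against 397, 248 and 287 in Ctrl (0.95, adjusted p = 0.00274), although its further probe set had -0.45 (adjusted p = 0.165). Kcnt2, a sodium-activated potassium channel, rose by 1.35, and Kcnj3, a G protein-gated inward rectifier, by 0.59. Nalcn, the sodium leak channel, had 607, 626 and 575 in IH28D against 453, 396 and 370 in Ctrl (0.57, adjusted p = 0.0027). Cacna1d, an L-type calcium channel, and Fgf12, a sodium channel partner, rose by 0.93 and 0.94. Among the sodium, calcium and HCN channels the beta subunit Scn2b was the one that fell, at 1142, 974 and 1285 in IH28D against 1508, 1939 and 1911 in Ctrl (-0.66, adjusted p = 0.00255). Stable rises numbered 5 among the sodium, calcium and HCN channels and 3 among the potassium channels, against 890 of 11656 genes (7.64%). Without Ctrl array 2 the rises numbered 5 and 3, against 1025 of 11656 genes. Both counts for potassium channels, 3 of 32, lay near the share of all genes. Nalcn and Kcnj3 averaged 673 ± 24.3 and 394 ± 58.0 in Ctrl28, above their IH28D means.

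Some receptor genes of the fast transmitters rose. Of 20 glutamate receptor genes 4 rose (20%, against 17.0% of all genes) and 1 fell. Grm5, the postsynaptic metabotropic receptor, had 626, 740 and 641 in IH28D against 277, 224 and 308 in Ctrl (1.32, SE 0.23, adjusted p = 0.00151). The AMPA receptor subunit Gria4 rose by 0.84 (adjusted p = 0.02), and the low-signal NMDA receptor subunit Grin2d fell, at 16.7, 31.3 and 17.8 in IH28D against 42.1, 52.0 and 51.6 in Ctrl (-1.20, adjusted p = 0.00812). Of 13 genes of GABA-A receptors and GABA synthesis 7 rose and 1, the transporter Slc6a11, fell (median 0.47). The rises numbered 2 without IH28D array 2 and 3 without Ctrl array 2 or 3, and Gabrb2 and Gad2 were the stable ones. Gabrb2, a receptor beta subunit, had 616, 989 and 686 in IH28D against 347, 264 and 354 in Ctrl (1.23, adjusted p = 0.00192). Gad2, a GABA-synthesising enzyme of inhibitory terminals, had 563, 470 and 397 in IH28D against 279, 248 and 214 in Ctrl (0.94, adjusted p = 0.00384). Gabra2 and Gabrb1 rose by 1.04 and 0.78 but were not stable. Gabra2 and Gabrb2 were also higher in IH28D than in Ctrl28, by 0.98 (adjusted p = 0.0434) and 0.85 (adjusted p = 0.0316).

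**Figure D2:**
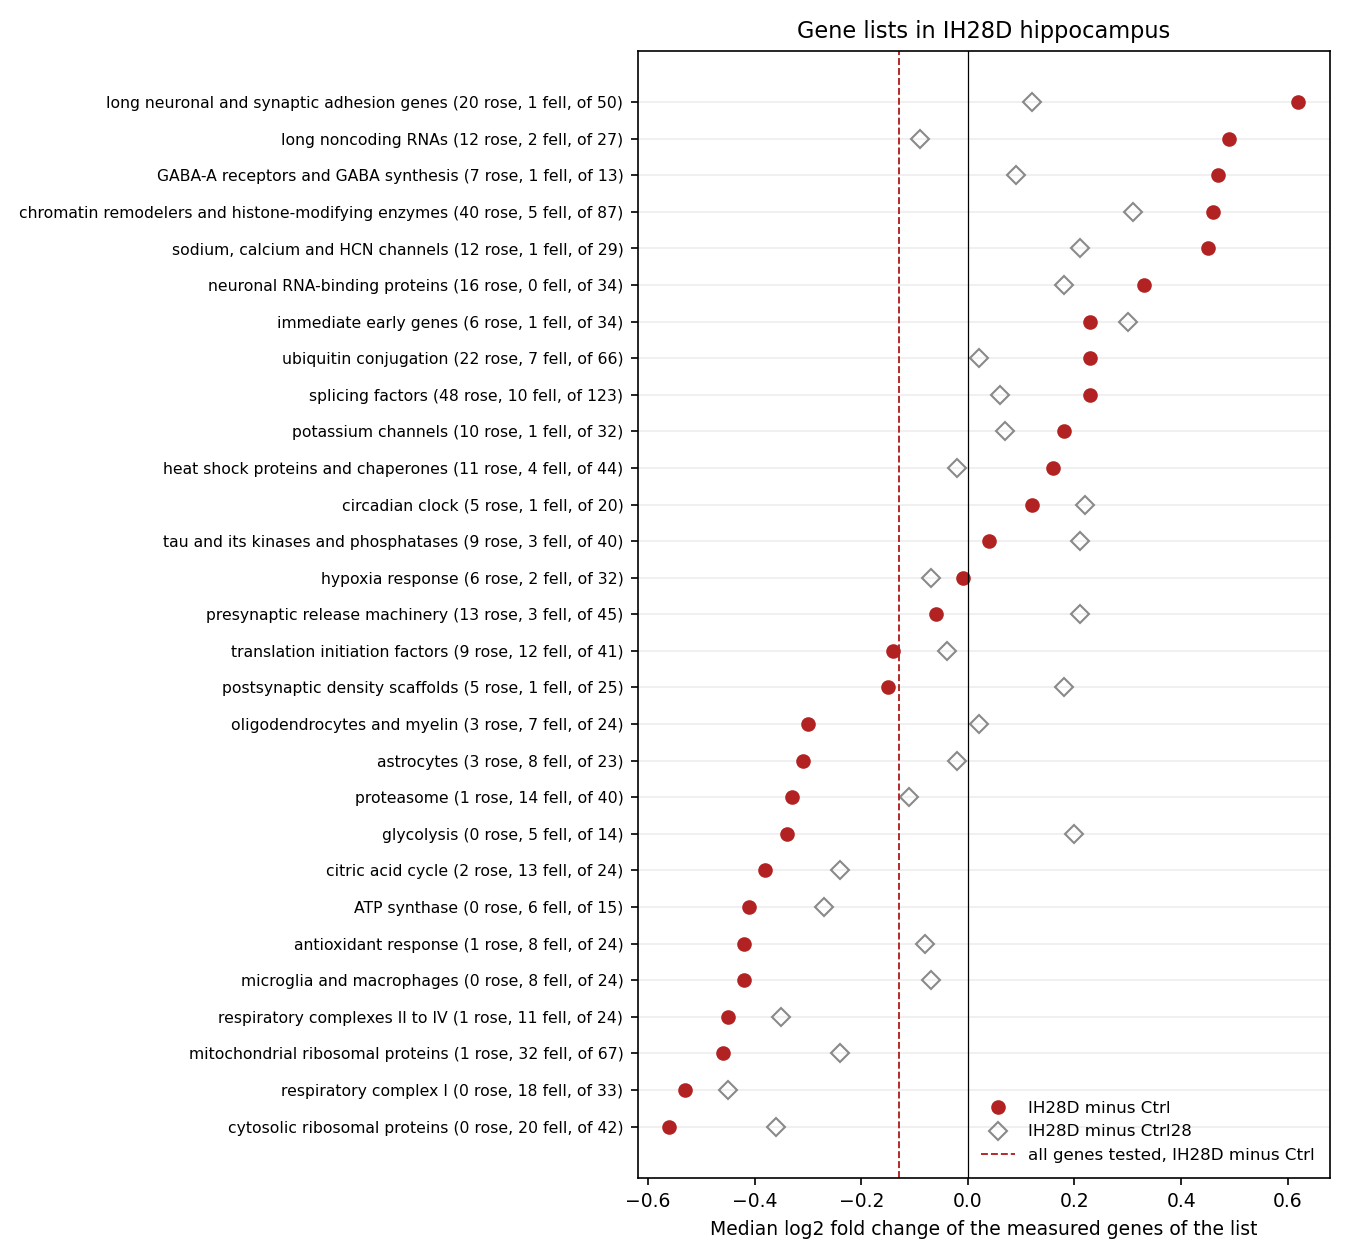
Median log2 fold change of the measured genes of 29 lists, for IH28D minus Ctrl (filled circles) and IH28D minus Ctrl28 (open diamonds), with the counts that rose and fell against Ctrl beside each name and a dashed line at the median of all genes tested, -0.13. The lists of RNA, chromatin and channel genes lie right of the line and those of respiratory and ribosomal genes left of it, and the diamonds span a narrower range.

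The genomic length of a gene went with its change. Lengths were known for 11634 genes (99.8%). Genes that rose had a median length of 50.6 kb, genes that fell 12.7 kb and genes that passed neither way 24.1 kb. With the genes cut into 5 classes of equal size by length, 28.6% of genes rose and 5.46% fell in the longest class (median 140 kb), 4.51% rose and 27.6% fell in the shortest (median 4.59 kb), and the classes between them were graded. The median log2 fold change was 0.25 in the longest class and -0.39 in the shortest. Against Ctrl28 the same classes had medians of 0.05 and -0.04. Ctrl28 itself differed from Ctrl by 0.26 and -0.31 in them, IH5D by 0.17 and -0.28, comparisons that share the Ctrl arrays with this one.

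By array, the shortest class stood 0.034, -0.097 and -0.1 from the mean of all 18 arrays in IH28D (log2, median over genes), against 0.18, 0.423 and 0.328 in Ctrl, and the longest class stood at 0.021, 0.057 and 0.127 in IH28D, against -0.049, -0.275 and -0.199 in Ctrl. Ctrl arrays 2 and 3 thus lay farther from the mean than any IH28D array did, in both classes. The part of array differences in the length pattern was not tested.

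**Figure D3:**
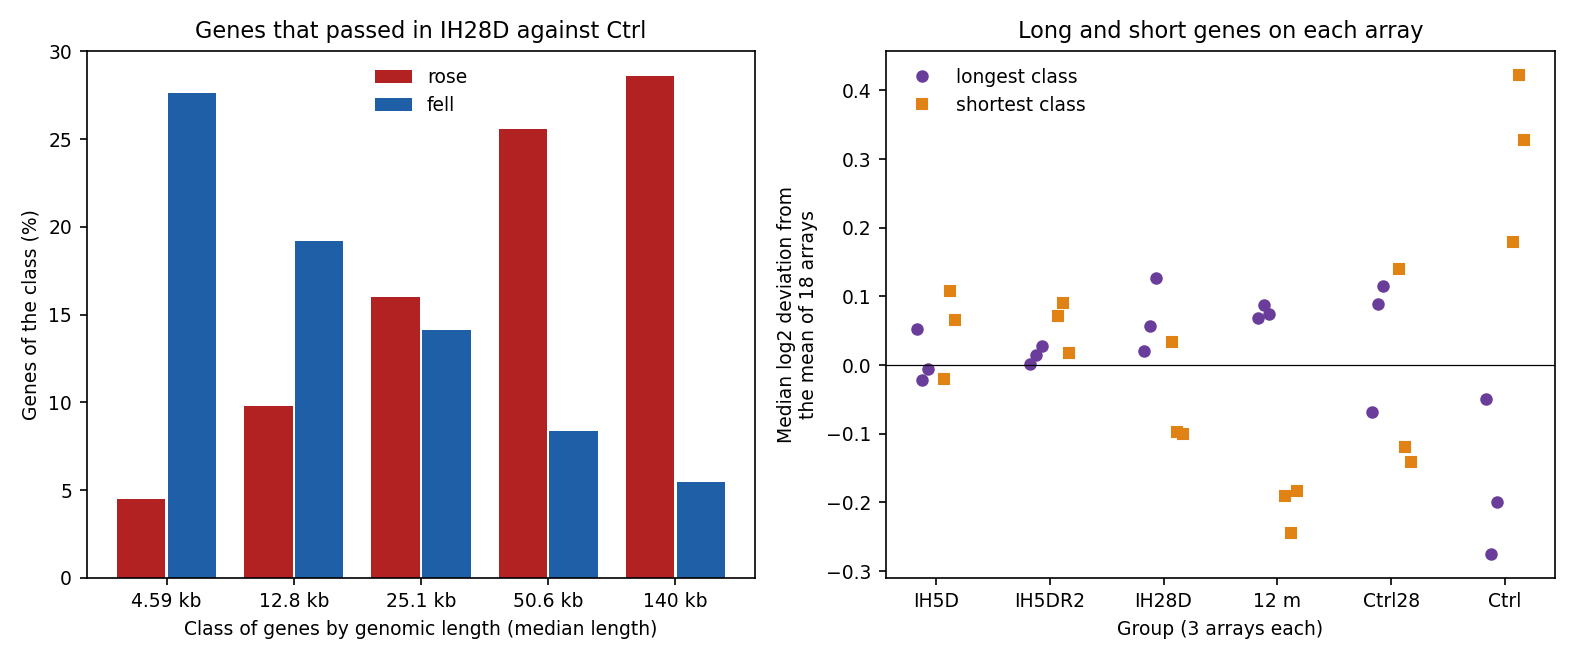
Left, the share of genes in each of 5 classes of genomic length that rose or fell in IH28D against Ctrl (bars from 0), and right, the median log2 deviation of the longest and shortest class from the mean of the 18 arrays, 1 point per array of IH5D, IH5DR2 (5 days of IHT and 2 days of recovery), IH28D, 12 m (control mice reared for 12 months), Ctrl28 and Ctrl. The Ctrl arrays reach 0.423 for the shortest class and -0.275 for the longest.

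The genes of the proteins that the study measured did not move as a group. Mapt, which encodes tau, had 850, 839 and 1102 in IH28D against 914, 746 and 852 in Ctrl, overlapping values (0.15, SE 0.14, adjusted p = 0.418). Gsk3b, a tau kinase, had 669, 770 and 717 in IH28D against 556, 357 and 405 in Ctrl (0.73, SE 0.14, adjusted p = 0.00225), and 3 of its 5 further probe sets rose while none fell. Cdk5, the other main neuronal tau kinase, had 597, 501 and 443 in IH28D against 620, 744 and 662 in Ctrl (-0.40, SE 0.14, adjusted p = 0.0388). Both kinase genes passed, in opposite directions, but the call for Cdk5 was not stable and no gene of the tau list fell without Ctrl array 2. Ppp2ca, the catalytic subunit of protein phosphatase 2A, had 2679, 2500 and 2874 in IH28D against 2754, 2742 and 3050 in Ctrl (-0.09, adjusted p = 0.495) while a further probe set of it rose by 0.78 (adjusted p = 0.00807), and its scaffold Ppp2r1a had -0.47 (adjusted p = 0.0536).

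Of 40 genes of tau kinases and phosphatases 9 rose and 3 fell, against 17.0% and 14.9% of all genes, and after median centring 6 rose and 6 fell. Csnk1a1, a casein kinase, had 1364, 1558 and 1601 in IH28D against 964, 710 and 847 in Ctrl (0.85, SE 0.13, adjusted p = 0.000682). Ttbk2, a tau tubulin kinase, and Ppp3ca, the calcineurin catalytic subunit, rose by 1.03 and 0.74. Both were stable, as was Csnk1a1.

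Among the synaptic genes, Gria2, the AMPA receptor subunit that limits calcium entry, had 1689, 3004 and 1727 in IH28D against 794, 675 and 883 in Ctrl (1.40, SE 0.32, adjusted p = 0.00471), and both of its further probe sets rose. Gria1 had 1866, 1740 and 2180 in IH28D against 1593, 1809 and 1892 in Ctrl (0.13, SE 0.27, adjusted p = 0.743). Pick1, a PDZ protein that binds AMPA receptor tails, had 100, 97.3 and 108 in IH28D against 137, 153 and 142 in Ctrl (-0.50, adjusted p = 0.0477). The call was stable for Gria2 and not for Pick1. Slc17a7, the vesicular glutamate transporter VGLUT1, had 273, 207 and 283 in IH28D against 318, 334 and 305 in Ctrl (-0.34, adjusted p = 0.145). Dlg4, which encodes PSD-95, had 764, 828 and 1013 in IH28D against 1098, 1065 and 1029 in Ctrl (-0.30, adjusted p = 0.102), and the vesicle protein Syp had -0.26 (adjusted p = 0.557). For Slc17a7 and Dlg4 every IH28D array lay below every Ctrl array, although neither difference passed. Over all genes tested, 29.2% lay below Ctrl in this way.

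Set against Ctrl28, the same genes stood differently. Slc17a7 averaged 128 ± 39.0, Dlg4 453 ± 62.0 and Syp 565 ± 476 in Ctrl28 (SD, n = 3 each), means below those in IH28D, with log2 fold changes of 1.02 (adjusted p = 0.00172), 0.94 (adjusted p = 0.00055) and 1.12 (adjusted p = 0.0446) for IH28D over Ctrl28. The 3 Ctrl28 arrays had 1114, 261 and 320 for Syp, so that array 1 lay above every IH28D array while the other two lay below. Cdk5 was higher in IH28D than in Ctrl28 by 0.74 (adjusted p = 0.00366), Mapt by 0.50 (adjusted p = 0.0302) and Gsk3b by 0.93 (adjusted p = 0.000658). On the brightest probe sets the sign for Cdk5 thus depends on the control, while Gsk3b was above both. The further probe set of Cdk5 had -0.57 against Ctrl and -0.23 against Ctrl28, where it did not pass. Against Ctrl28 the 5 further probe sets of Gsk3b had 0.02 to 0.30, and none passed. Ctrl28 array 1 differed from its group in Syp and in RNA quality, with a difference between the 3' and 5' control probe sets of 2.39 on the log2 scale against 0.82 and 0.97 on the other Ctrl28 arrays. All 3 lay above every IH28D and Ctrl array in that difference. The part of array 1 and of RNA quality in these values was not tested.

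**Figure D4:**
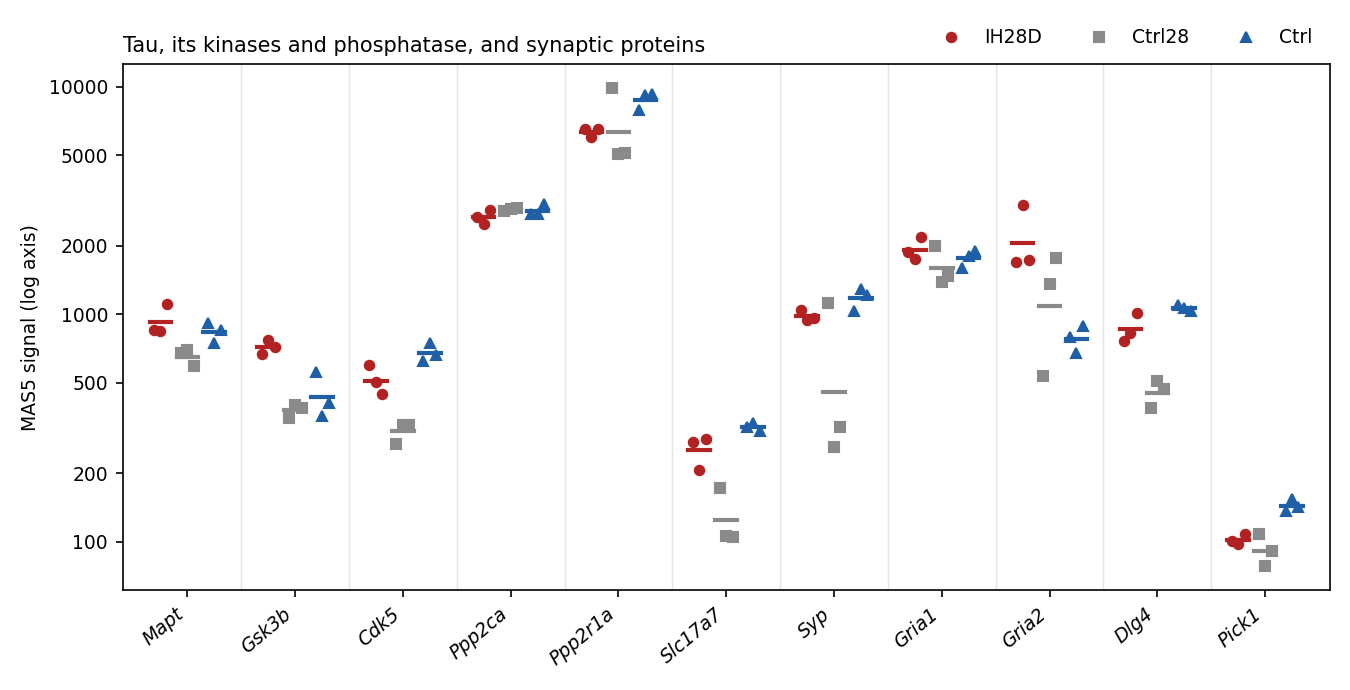
MAS5 signal (log axis) on each array for tau, its kinases and phosphatase, and synaptic proteins, with IH28D, Ctrl28 and Ctrl as 3 points each and a bar at the geometric mean. Gria2 and Gsk3b lie above Ctrl in IH28D, Cdk5 and Pick1 below it, and Slc17a7 and Dlg4 in IH28D lie above Ctrl28.

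The further synaptic lists held calls in both directions. Of 45 presynaptic release genes 13 rose and 3 fell, with rises in Stxbp5l, a tomosyn that restrains SNARE assembly (205, 409 and 255 in IH28D against 112, 74.9 and 78.7 in Ctrl, 1.67, adjusted p = 0.00266), Unc13c (1.22), Rims2 (0.77) and Napb (0.70), which prime or recycle the fusion machinery. Of 20 auxiliary proteins of AMPA receptors Cacng2, which encodes stargazin, rose by 0.95 and Frrs1l by 0.71, while Cpt1c fell by 0.47 along with Pick1. Of 25 postsynaptic scaffold genes 5 rose and 1 fell. The shares over all genes, for comparison with these lists, were 17.0% higher and 14.9% lower.

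Ubiquitin conjugation and the proteasome moved apart in the fit of all arrays. Of 66 ubiquitin-conjugating and ligase genes 22 rose and 7 fell, while of 40 proteasome genes 1 rose and 14 fell (median -0.33). The shares of all genes were 17.0% and 14.9%. Trim2, a neuronal ubiquitin ligase, had 2288, 2721 and 2722 in IH28D against 1593, 1256 and 1379 in Ctrl (0.87, SE 0.13, adjusted p = 0.000662). Cul1, the scaffold of SCF ligases, had 285, 333 and 296 in IH28D against 190, 163 and 161 in Ctrl (0.83, adjusted p = 0.00145), and the ligase Rnf6 and the activating enzyme Uba6 rose by 1.26 and 1.42. All 7 that fell encode conjugating enzymes or their variants, such as Ube2s and Ube2d2a. Psma2, a subunit of the proteasome core, had 1140, 952 and 866 in IH28D against 1491, 1840 and 1494 in Ctrl (-0.71, adjusted p = 0.00567), and Psme1 and Psmc3 fell by 0.68 and 0.41. Psmc6 was the proteasome gene that rose (1.005, adjusted p = 0.00263). Stable calls numbered 12 rises among the ubiquitin genes and 2 falls among the proteasome genes. Without Ctrl array 2 the falls in the proteasome list numbered 2. Both proteasome counts, 2 of 40, lay near those of all genes, 411 of 11656 (3.53%) and 497 of 11656.

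Genes of oxidative metabolism fell or did not pass, with few exceptions. Of 33 subunits of respiratory complex I 18 fell and none rose (median -0.53), against 14.9% and 17.0% of all genes. Values lay below 0 for 32 of the subunits. Ndufs8, an iron-sulfur subunit, had 2092, 1726 and 1545 in IH28D against 2978, 3856 and 3453 in Ctrl (-0.94, SE 0.21, adjusted p = 0.0048). Ndufa9 had 1154, 1089 and 977 in IH28D against 1312, 1655 and 1557 in Ctrl (-0.49, adjusted p = 0.00466). Ndufs3 and Ndufa10 fell by 0.49 and 0.41. The IH28D and Ctrl arrays did not overlap for any of these, with Ctrl array 1 nearest to IH28D each time.

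Of 24 genes of complexes II to IV 11 fell and 1 rose, and of 15 ATP synthase genes 6 fell and none rose. The shares of all genes were 14.9% and 17.0%. Cyc1, the cytochrome of complex III, had 1742, 1329 and 1484 in IH28D against 2058, 2732 and 2376 in Ctrl (-0.65, SE 0.15, adjusted p = 0.00599). Sdhb, a subunit of complex II, had 1919, 1613 and 1148 in IH28D against 2101, 2636 and 2472 in Ctrl (-0.65, adjusted p = 0.00704), and Uqcrc1 fell by 0.47. The exception, Cox7c, was measured by a dim probe set at 51.3, 50.4 and 37.4 in IH28D against 13.5, 22.9 and 17.1 in Ctrl (1.40, adjusted p = 0.00221). Of ATP synthase, Atp5g2 fell by 0.55, Atp5c1 by 0.58, Atp5a1 by 0.37 and Atp5d by 0.55.

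In the citric acid cycle list 13 of 24 genes fell and 2 rose, against 14.9% and 17.0% of all genes. Idh3g, a subunit of isocitrate dehydrogenase, had 1171, 1140 and 1010 in IH28D against 1580, 1767 and 1796 in Ctrl (-0.63, SE 0.15, adjusted p = 0.0067). Sucla2 and Pdha1 were the members that rose, by 0.46 and 0.47. None of 14 glycolytic genes rose and 5 fell. Tpi1, triosephosphate isomerase, had 3246, 2872 and 2667 in IH28D against 3659, 5014 and 4508 in Ctrl (-0.58, adjusted p = 0.00387), and Pgam1 and the neuronal enolase Eno2 fell by 0.34 and 0.46. For glycolysis the control mattered, since Eno2 averaged 1414 ± 337 in Ctrl28 (SD, n = 3) and was higher in IH28D by 0.66 (adjusted p = 0.0101).

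Stable falls numbered 2 of 33 for complex I, 2 of 24 for complexes II to IV and 0 of 15 for ATP synthase. They numbered 2 of 24 for the citric acid cycle and 2 of 14 for glycolysis, against 411 of all 11656 genes (3.53%). Without Ctrl array 2, 2 complex I genes fell, and without IH28D array 2, 6 did, against 497 and 643 of all 11656 genes. After quantile normalization 12 fell and after median centring 23. Medians against Ctrl28 were -0.45 for complex I, -0.35 for complexes II to IV and -0.27 for ATP synthase, with 2, 2 and 0 genes lower, against 2.14% of all genes lower in IH28D than in Ctrl28 and 5.71% higher.

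Ribosomal protein genes fell in both compartments. Of 67 mitochondrial ribosomal genes 32 fell and 1 rose (median -0.46), and of 42 cytosolic ribosomal genes 20 fell and none rose (median -0.56). The shares of all genes were 14.9% and 17.0%. Mrps11 had 168, 147 and 145 in IH28D against 272, 358 and 298 in Ctrl (-1.01, SE 0.15, adjusted p = 0.000702). Mrpl2 had 269, 250 and 241 in IH28D against 384, 452 and 422 in Ctrl (-0.73, adjusted p = 0.00221), and Mrpl17 and Mrpl11 fell by 0.82 and 0.81. Rpsa, a protein of the small cytosolic subunit, had 2820, 2247 and 2088 in IH28D against 3083, 4197 and 4190 in Ctrl (-0.68, adjusted p = 0.00473). Rps2, Rps6 and Rpl7 fell by 0.58, 0.72 and 0.46. Many cytosolic ribosomal genes have near-identical pseudogenes, so their probe sets may not measure 1 gene alone. Stable falls numbered 7 and 8, and without Ctrl array 2 the falls numbered 8 in each list. For all 11656 genes these counts were 411 (3.53%) and 497.

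Translation initiation factors were split, with 9 of 41 higher and 12 lower, against 17.0% and 14.9% of all genes. Eif3a, the largest subunit of eIF3, had 729, 1215 and 892 in IH28D against 550, 389 and 341 in Ctrl (1.15, SE 0.20, adjusted p = 0.0014), whereas Eif3f, a smaller subunit, had 1773, 1350 and 1512 in IH28D against 2721, 2699 and 2730 in Ctrl (-0.82, SE 0.13, adjusted p = 0.000772). Subunits of 1 complex thus changed in opposite directions. Eif2s2 and Eif4g3 rose by 1.14 and 0.76. Of the 24 antioxidant genes 8 fell and 1, the regulator Nfe2l2, rose. Prdx2, a peroxidase of the cytosol, had 1666, 1479 and 1340 in IH28D against 1906, 2804 and 2329 in Ctrl (-0.64, adjusted p = 0.00382), and Prdx4, its counterpart in the endoplasmic reticulum, had 207, 154 and 109 in IH28D against 262, 355 and 281 in Ctrl (-0.97, adjusted p = 0.00693). Txn2 fell by 0.62. Gss, glutathione synthetase, fell by 0.74 and was also lower than in Ctrl28 (-0.80, adjusted p = 0.00731). Its further probe set had -0.44 against Ctrl and 0.25 against Ctrl28 and passed against neither. After median centring 12 antioxidant genes fell and none rose.

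The 12 largest falls, by the same rule, were 2.14- to 3.45-fold, and 8 of them were stable, Dnajc17, Wnt9a, Cog7 and Syce2 being the exceptions. Lztr1, an adaptor that targets Ras proteins for degradation, had 511, 518 and 488 in IH28D against 1350, 1569 and 1588 in Ctrl (-1.57, SE 0.29, adjusted p = 0.00185), and its further probe set fell by 0.43. Jpt1, a microtubule-associated protein, had 211, 197 and 181 in IH28D against 480, 831 and 720 in Ctrl (-1.75, SE 0.41, adjusted p = 0.00547), but its further probe sets had -0.19 and -0.27 and did not pass. Ces5a, a carboxylesterase, had 45.9, 17.8 and 59.0 in IH28D against 135, 105 and 141 in Ctrl (-1.79, SE 0.32, adjusted p = 0.00151). These 3, with S100a10 and Zfp593, are measured by probe sets whose oligonucleotides can cross-hybridise with other transcripts, and such probe sets measure 5 of the 12 falls and 0 of the 12 rises. Over all genes represented by such probe sets, 31.6% fell and 4.46% rose.

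S100a10, the partner of annexin A2, had 180, 105 and 108 in IH28D against 300, 297 and 316 in Ctrl (-1.26, SE 0.29, adjusted p = 0.00579), and was lower than in Ctrl28 too (-1.14, adjusted p = 0.0254). Its further probe set had -0.66 against Ctrl and -0.64 against Ctrl28 and passed against neither. Ctrl28 array 1 was the Ctrl28 array nearest to Ctrl for 11 of the 12 largest falls, so their Ctrl28 means rest on it in part. Nfatc2, a calcium-responsive transcription factor, had 77.8, 34.2 and 64.9 in IH28D against 141, 117 and 131 in Ctrl (-1.21, adjusted p = 0.00374), with 0.36 and -0.44 for its further probe sets. Wnt9a, a Wnt ligand, had 67.8, 43.4 and 45.0 in IH28D against 129, 117 and 114 in Ctrl (-1.23, adjusted p = 0.012). Probe sets of 1 gene could disagree outright. Smim20, a small membrane protein, fell by 1.15 on its brightest probe set while another of its probe sets rose by 1.58 (adjusted p = 0.0363). Dnajc17, Zfp593, Cog7, Syce2 and Ifi35 had log2 fold changes of -1.50, -1.15, -1.15, -1.12 and -1.10. In all, 392 of 1207 further probe sets of genes that fell also fell and 35 rose, and 1097 of 2389 further probe sets of genes that rose also rose and 17 fell.

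Several chaperones of the endoplasmic reticulum were among the genes that rose. Of 44 heat shock and chaperone genes 11 rose (25%, against 17.0% of all genes) and 4 fell (9.09%, against 14.9%), and after median centring 8 rose and 8 fell. Hspa5, the luminal chaperone BiP, had 1308, 1058 and 1981 in IH28D against 788, 648 and 575 in Ctrl (1.07, SE 0.18, adjusted p = 0.00124). Hsp90b1, the luminal Hsp90, had 816, 826 and 1052 in IH28D against 586, 527 and 398 in Ctrl (0.84, SE 0.17, adjusted p = 0.00277). Dnajc3, a luminal cochaperone of BiP, had 220, 294 and 288 in IH28D against 173, 120 and 83.8 in Ctrl (1.14, SE 0.23, adjusted p = 0.00251). No IH28D array fell within the Ctrl range for these, and all were stable, although a dimmer probe set of Hspa5 had -0.20 (adjusted p = 0.424). The cytosolic cochaperone Dnajb6 rose by 0.61. The genes that fell were Cct3, Cct5 and Cct7, subunits of the cytosolic chaperonin, and Dnajb2.

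The promoters of these luminal chaperones show a motif they have in common, and are printed for that reason. The endoplasmic reticulum stress response element, bound by NF-Y and Atf6, is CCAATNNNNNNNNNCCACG. It was searched on both strands in a window of 250 bases before to 50 after each start site in RefSeq (GRCm38.p6) and was found in 39 of 32851 promoters (0.119%). Capitals mark the matches, and in Hsp90b1 the second is on the other strand. Windows are chr2:34771840-34772139 on the plus strand for Hspa5, chr10:86705395-86705694 on the minus strand for Hsp90b1 and chr14:118937682-118937981 on the plus strand for Dnajc3.
Hspa5: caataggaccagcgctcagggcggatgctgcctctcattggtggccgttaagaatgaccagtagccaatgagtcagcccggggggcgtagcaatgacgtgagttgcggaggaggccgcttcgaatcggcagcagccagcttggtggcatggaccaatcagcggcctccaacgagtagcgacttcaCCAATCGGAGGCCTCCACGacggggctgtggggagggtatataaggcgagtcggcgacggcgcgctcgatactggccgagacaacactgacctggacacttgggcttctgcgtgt
Hsp90b1: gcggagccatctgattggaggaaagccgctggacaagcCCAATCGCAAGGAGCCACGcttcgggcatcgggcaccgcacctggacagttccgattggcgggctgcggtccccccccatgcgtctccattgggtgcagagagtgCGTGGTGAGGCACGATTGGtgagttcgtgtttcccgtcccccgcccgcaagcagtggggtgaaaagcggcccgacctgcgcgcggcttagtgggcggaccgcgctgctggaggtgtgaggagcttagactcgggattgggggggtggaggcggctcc
Dnajc3: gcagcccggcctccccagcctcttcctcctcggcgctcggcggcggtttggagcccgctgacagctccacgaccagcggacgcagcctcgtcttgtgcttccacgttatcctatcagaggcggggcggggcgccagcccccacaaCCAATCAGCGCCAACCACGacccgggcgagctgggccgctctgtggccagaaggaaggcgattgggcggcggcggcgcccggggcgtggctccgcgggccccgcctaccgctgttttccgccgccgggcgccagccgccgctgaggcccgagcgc

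The first base of the match lay 65 bases before the start site in Hspa5, 212 and 107 bases before it in Hsp90b1 and 105 bases before it in Dnajc3. Of 53 chaperone and unfolded protein response genes with a promoter window, 7 held the element, and all 7 were measured. The other 4 passed neither way. They are the lectin chaperones Calr (1556, 1436 and 2014 in IH28D against 1639, 2051 and 2090 in Ctrl, -0.21, adjusted p = 0.384) and Canx (0.20, adjusted p = 0.221, with a further probe set that rose by 0.72), the disulfide isomerase Pdia6 (0.28, adjusted p = 0.259) and Creld2 (0.19, adjusted p = 0.609). IH28D array 3 was the highest of its group for Calr, Pdia6 and Creld2 as it was for Hspa5 and Hsp90b1. In Ctrl28 the 3 genes that rose stood near or above the IH28D level, Hspa5 at 1408 ± 138, Hsp90b1 at 813 ± 188 and Dnajc3 at 259 ± 72.9 (SD, n = 3 each), and none passed between IH28D and Ctrl28.

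Other genes of the unfolded protein response were mixed, with 2 of 20 higher and 3 lower, against 17.0% and 14.9% of all genes. Atf6, the membrane-bound sensor and transcription factor, rose by 0.72 (adjusted p = 0.00702), although its further probe set had -0.34 (adjusted p = 0.301). Hyou1, a luminal chaperone of the Hsp70 family, fell, at 178, 192 and 253 in IH28D against 260, 447 and 375 in Ctrl (-0.78, SE 0.27, adjusted p = 0.0382), a call that was not stable. Asns, asparagine synthetase, had 807, 667 and 765 in IH28D against 970, 1127 and 1159 in Ctrl (-0.54, adjusted p = 0.00487), and Chac1, a glutathione-degrading enzyme, fell by 0.78 (adjusted p = 0.0152). Asns and Chac1 are known targets of the Atf4 branch of the response.

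Of 32 genes known to respond to hypoxia 6 rose and 2 fell, against 17.0% and 14.9% of all genes, with a median of -0.01. Hif1a itself had 542, 584 and 552 in IH28D against 432, 302 and 287 in Ctrl (0.74, SE 0.17, adjusted p = 0.00559), and its partner Arnt had 87.5, 71.4 and 113 in IH28D against 65.6, 56.4 and 46.3 in Ctrl (0.68, adjusted p = 0.0236). Among the targets, P4ha1, a collagen prolyl hydroxylase, had 166, 131 and 173 in IH28D against 99.4, 85.4 and 81.0 in Ctrl (0.82, SE 0.20, adjusted p = 0.00666). Pdk1, which shuts pyruvate out of the citric acid cycle, rose by 0.55, Ero1a, a luminal oxidase, by 0.60 and Kdm3a, a histone demethylase, by 0.63. Pgk1, a glycolytic target, went the other way at 2264, 2151 and 2272 in IH28D against 3071, 3674 and 3551 in Ctrl (-0.62, SE 0.14, adjusted p = 0.00489), and Ndrg1 fell by 0.48. Vegfa, the vessel growth factor, had 107, 106 and 76.0 in IH28D against 79.6, 82.6 and 83.2 in Ctrl (0.22, adjusted p = 0.441), and the glucose transporter Slc2a1 had -0.42 (adjusted p = 0.117).

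Hif1a averaged 665 ± 148, Pdk1 209 ± 6.68 and Arnt 126 ± 6.99 in Ctrl28 (SD, n = 3 each), so that the levels in room air after 28 days lay near or above those in IH28D. P4ha1 averaged 103 ± 17.5 there, and IH28D exceeded it by 0.61 without passing (adjusted p = 0.0658). No hypoxia gene passed as higher than in Ctrl28, and Pgk1 was lower (-0.53, adjusted p = 0.028). The core of the hypoxia response element, ACGTG or GCGTG, was in at least 1 promoter window of 31 of 34 genes of this list. It was in 43.8% of all windows, a share by window and not by gene, and some genes have several windows. Of the 25 measured genes of the list with the core 6 rose and 1 fell.

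**Figure D5:**
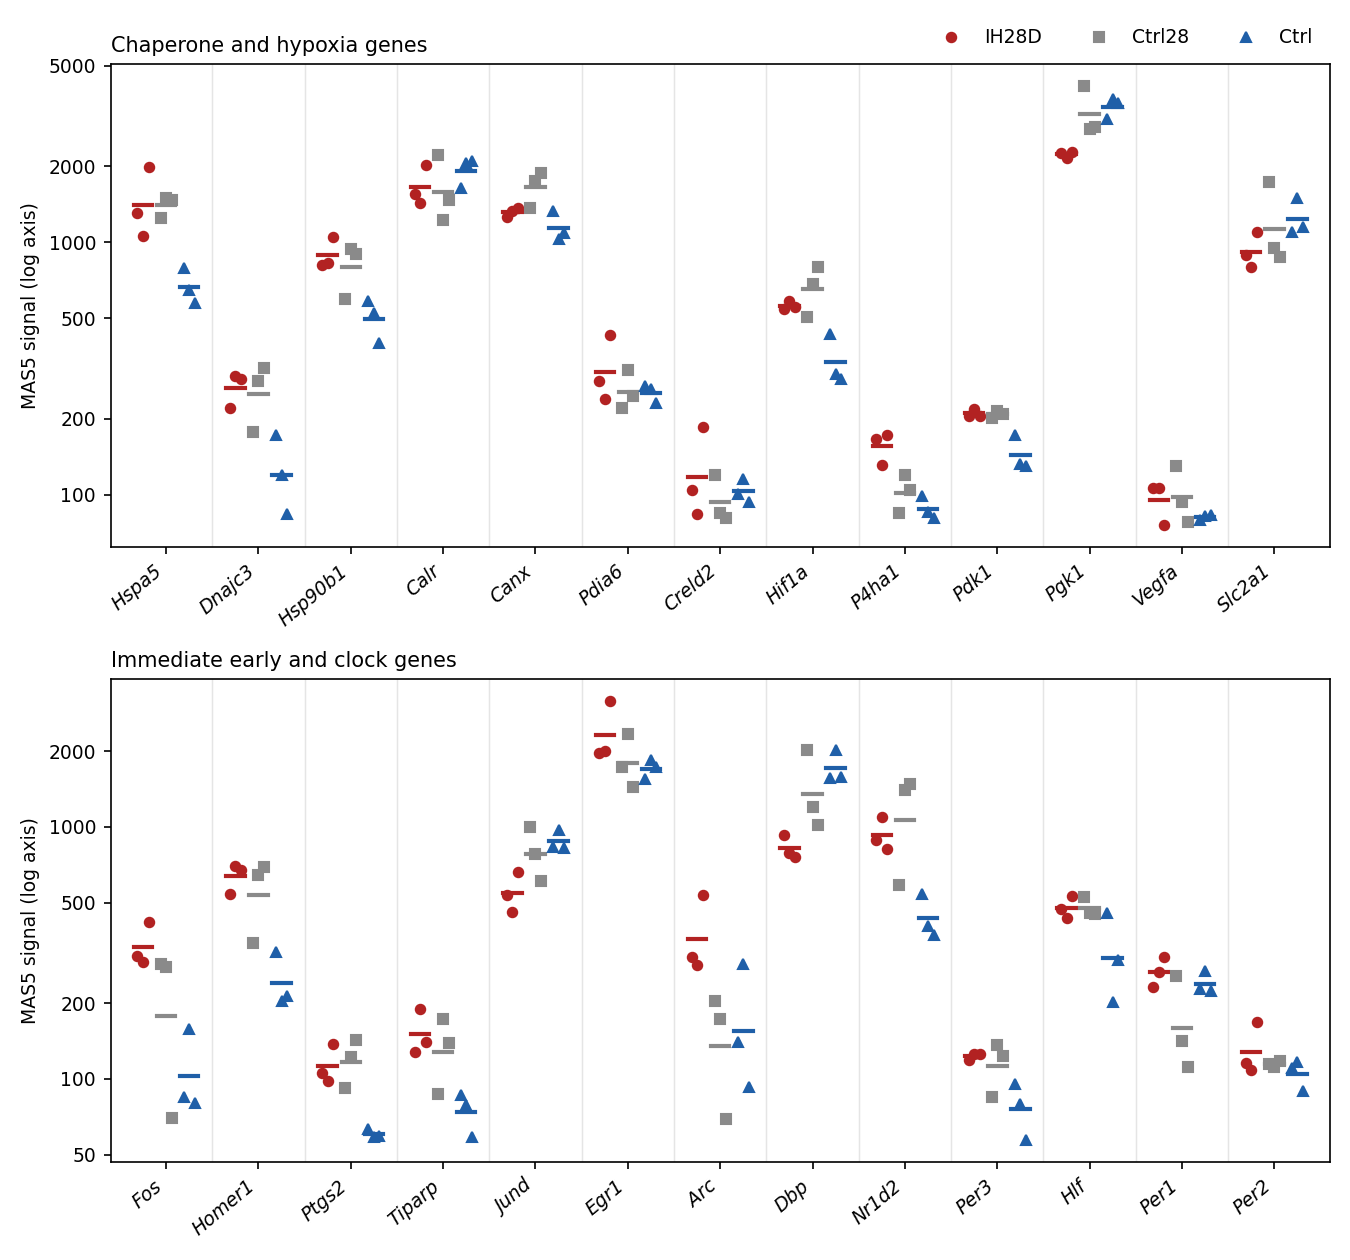
MAS5 signal (log axis) on each array for chaperone and hypoxia genes (top) and immediate early and clock genes (bottom), with IH28D, Ctrl28 and Ctrl as 3 points each and a bar at the geometric mean. Hspa5, Dnajc3 and Hif1a in Ctrl28 lie near or above their IH28D level, while the IH28D points of Dbp lie below those of Ctrl.

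Of 34 immediate early genes, which neurons switch on within minutes of activity, 6 rose (17.6%, against 17.0% of all genes) and 1 fell. Fos had 306, 291 and 421 in IH28D against 84.6, 158 and 80.5 in Ctrl (1.71, SE 0.56, adjusted p = 0.0288), and it averaged 211 ± 122 in Ctrl28 (SD, n = 3). Homer1, whose short activity-induced form uncouples metabotropic receptors, had 542, 701 and 677 in IH28D against 319, 205 and 214 in Ctrl (1.40, SE 0.23, adjusted p = 0.00122), and 3 of its 4 further probe sets rose. Ptgs2, the inducible cyclooxygenase, had 106, 97.9 and 137 in IH28D against 63.4, 58.5 and 59.2 in Ctrl (0.90, adjusted p = 0.00354). Its further probe set had -0.32 and did not pass (adjusted p = 0.342). Tiparp rose by 1.03. Arc, a postsynaptic regulator of AMPA receptors, had 305, 283 and 539 in IH28D against 140, 286 and 92.8 in Ctrl, overlapping values (1.21, SE 0.48, adjusted p = 0.0605). Egr1 had 1970, 1997 and 3153 in IH28D against 1546, 1850 and 1723 in Ctrl, which did not overlap (0.44, adjusted p = 0.149). Over all genes tested, 23.4% lay above every Ctrl array in this way. Jund fell by 0.69. In Fos, Arc and Egr1 array 3 was the highest of the IH28D arrays, and only Homer1, Ptgs2 and Tiparp were stable.

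Clock genes follow the hour of the day. Of 20 clock genes Rora, Nr1d2, Clock, Per3 and Hlf rose (25%, against 17.0% of all genes) and 1 fell (5%, against 14.9%). Dbp, an output gene of the clock, had 927, 786 and 760 in IH28D against 1566, 2011 and 1579 in Ctrl (-1.06, SE 0.23, adjusted p = 0.00382), and its second probe set fell by 0.85 (against Ctrl28 it had 0.20, adjusted p = 0.594). Nr1d2, which encodes the repressor REV-ERB beta, had 890, 1095 and 817 in IH28D against 541, 406 and 373 in Ctrl (1.09, SE 0.25, adjusted p = 0.00529). Per3 and the Dbp relative Hlf rose by 0.70 and 0.67. Per1 and Per2, core repressors of the clock, had 0.15 (adjusted p = 0.602) and 0.29 (adjusted p = 0.204), although the second probe set of Per2 rose by 0.75 (adjusted p = 0.0224). Dbp averaged 1414 ± 530 and Nr1d2 1156 ± 496 in Ctrl28 (SD, n = 3), and neither passed against it. The hour of killing and the treatment cannot be told apart in these values.

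Glucocorticoid-responsive genes, a readout of stress hormone, included 4 of 21 that rose (19%, against 17.0% of all genes) and 2 that fell (9.52%, against 14.9%). Klf9 had 3574, 3658 and 3712 in IH28D against 2656, 1855 and 1828 in Ctrl (0.81, SE 0.17, adjusted p = 0.00361), and Zbtb16 had 294, 291 and 437 in IH28D against 233, 184 and 179 in Ctrl (0.76, adjusted p = 0.00407). Both encode zinc finger transcription factors. The receptor Nr3c1 rose by 0.84, and the protease Htra1 fell by 0.45. Zbtb16 was also higher in IH28D than in Ctrl28 (0.60, adjusted p = 0.0349), where it averaged 221 ± 10.9, whereas Klf9 averaged 3762 ± 900 in Ctrl28. Sgk1, another glucocorticoid target, fell.

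Glial marker lists held falls that depended in part on single arrays, and in bulk tissue fewer cells of a type and less RNA per cell cannot be told apart. Of 24 microglial and macrophage markers 8 fell and none rose (median -0.42), against 14.9% and 17.0% of all genes. The falls of 4 were stable, and 4 markers fell without IH28D array 2 and 5 without Ctrl array 2 or 3. Laptm5, a lysosomal protein of leukocytes, had 129, 122 and 129 in IH28D against 207, 208 and 226 in Ctrl (-0.75, SE 0.15, adjusted p = 0.00278). The complement genes C1qa and C1qb had -0.75 and -0.65, with C1qa at 341, 246 and 339 in IH28D against 428, 595 and 530 in Ctrl, and the microglial receptor Fcrls had -0.74. Aif1, which encodes Iba1, had 62.3, 41.4 and 39.7 in IH28D against 58.2, 68.8 and 77.5 in Ctrl (-0.53, adjusted p = 0.136). The mean log2 level of the list was 6.78, 6.49 and 6.51 in IH28D, below every Ctrl array at 6.85, 6.97 and 7.06. In Ctrl28 it was 6.63 to 6.72, and C1qa and C1qb were higher in IH28D than in Ctrl28 (0.62, adjusted p = 0.0346, and 0.87, adjusted p = 0.00227). The 2 further probe sets of C1qb had -0.25 and -0.42 against Ctrl28 and did not pass, so its rise there rests on the brightest.

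Of 23 astrocyte markers 8 fell and 3 rose, against 14.9% and 17.0% of all genes. The falls numbered 4 without IH28D array 2, 3 without Ctrl array 2 and 5 without Ctrl array 3, with 2 rises each time. Gpr37l1, an astrocytic receptor, had 494, 424 and 556 in IH28D against 756, 886 and 827 in Ctrl (-0.75, SE 0.13, adjusted p = 0.00152), and Mlc1, a membrane protein of astrocyte endfeet, had -0.82 (adjusted p = 0.00195). Gfap, the astrocyte filament, had 194, 152 and 201 in IH28D against 314, 444 and 358 in Ctrl (-1.03, SE 0.38, adjusted p = 0.0465), and its further probe sets had -0.65 and -0.78 and did not pass. The glutamate transporter Slc1a2 went the other way at 5651, 6059 and 5758 in IH28D against 4174, 3055 and 2909 in Ctrl (0.80, adjusted p = 0.00336), as did the bicarbonate transporter Slc4a4 (0.71). No further probe set of these genes passed, with 0.23 and -0.36 for Slc1a2 and 0.03 to 0.62 for Slc4a4. On the brightest probe sets the list thus held genes that moved in both directions. Its mean log2 level was 9.26 to 9.4 in IH28D and 9.54 to 9.62 in Ctrl.

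Of 24 oligodendrocyte and myelin markers 7 fell and 3 rose, against 14.9% and 17.0% of all genes. Without IH28D array 2, 2 fell and 3 rose, and without Ctrl array 2, 2 fell and 2 rose. Without Ctrl array 3, 3 fell and 3 rose, so that the excess of falls rested on those arrays. Opalin, a myelin membrane protein, had 240, 189 and 126 in IH28D against 323, 375 and 436 in Ctrl (-1.07, SE 0.20, adjusted p = 0.0017), and Mog had 246, 215 and 193 in IH28D against 288, 365 and 369 in Ctrl (-0.64, adjusted p = 0.00345). Ugt8a, which makes the myelin lipid galactosylceramide, and the cytoskeletal gene Ermn rose by 0.71 and 1.11. Of 25 interferon and MHC class I genes 4 fell (16%, against 14.9% of all genes) and none rose (median -0.51), and 1 fell without Ctrl array 2 and 2 without IH28D array 2. The 4 were the peptide transporter Tap1 (-1.12), Ifi35 (-1.10), the immunoproteasome subunit Psmb10 (-0.56) and H2-K1 (-0.59).

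Tissue at the edge of the dissection varied between arrays. The mean log2 level of 23 choroid plexus markers was 7.98, 8.0 and 5.25 in IH28D and 8.06, 8.21 and 5.28 in Ctrl, so that array 3 of each group held far less of it. Ttr, the transthyretin gene that dominates that tissue, had 14642, 15460 and 4774 in IH28D against 12808, 15993 and 1584 in Ctrl (0.58, adjusted p = 0.538). No choroid plexus or ependymal marker passed. Of the blood genes, Hbb-b2 had 60.4, 4.44 and 11.9 in IH28D against 50.9, 45.4 and 56.2 in Ctrl, overlapping values (-1.78, SE 0.63, adjusted p = 0.0403), and Bpgm had -0.11 (adjusted p = 0.52). Of 22 dentate granule cell genes 5 rose (22.7%, against 17.0% of all genes) and none fell, and 1 of the rises was stable. Of 21 pyramidal cell genes 4 fell (19%, against 14.9% of all genes) and none rose, and 1 of the falls was stable. Of 22 interneuron genes 2 rose (9.09%) and 1 fell (4.55%).

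Few genes separated IH28D from both controls. Against Ctrl and Ctrl28 alike, 83 genes were higher (0.712%) and 127 lower (1.09%). Of the genes that rose against Ctrl, 1339 had a value above 0 against Ctrl28 and 11 were lower than in Ctrl28, and of those that fell 1150 had a value below 0 and 109 were higher. Ctrl28 itself differed from Ctrl in 4191 genes (36.0%), and these comparisons share arrays. The counts rest on single arrays, since without IH28D array 2 they were 17 and 23, and with only the groups compared in each fit they were 7 and 5.

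Of the genes above both controls, Esf1, a nucleolar factor of ribosomal RNA processing, had 115, 293 and 143 in IH28D against 51.5, 54.0 and 62.5 in Ctrl and 63.0 ± 27.9 in Ctrl28 (SD, n = 3), with log2 fold changes of 1.60 over Ctrl (adjusted p = 0.0025) and 1.51 over Ctrl28 (adjusted p = 0.00682). Mtm1, a phosphoinositide phosphatase, had 122, 186 and 139 in IH28D against 90.2, 49.9 and 65.8 in Ctrl and 52.1 ± 6.49 in Ctrl28 (1.14, adjusted p = 0.00204, and 1.50, adjusted p = 0.000392). Gucy1a2, a subunit of the nitric oxide-activated guanylate cyclase, had 96.0, 182 and 112 in IH28D against 65.3, 53.1 and 50.5 in Ctrl (1.16, adjusted p = 0.00933), and exceeded Ctrl28 by 1.17. By the rule that chose them, no Ctrl or Ctrl28 array reached the IH28D range in any of them. Eif5b, which joins the ribosomal subunits, Ttc14 and the zinc finger gene Zfp292 exceeded Ctrl by 1.24, 1.70 and 1.20 and Ctrl28 by 1.13, 1.47 and 1.14. For Ttc14, all 7 further probe sets had values above 0 against Ctrl, and 5 of them rose. No further probe set of Esf1, Mtm1, Eif5b, Ttc14 or Zfp292 passed against Ctrl28.

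Of the genes below both controls, Asrgl1, an asparaginase-like enzyme, had 339, 240 and 261 in IH28D against 427, 538 and 565 in Ctrl and 549 ± 55.6 in Ctrl28 (-0.87, adjusted p = 0.00138, and -0.98, adjusted p = 0.000634). BC004004 had 542, 438 and 392 in IH28D against 757, 1001 and 907 in Ctrl and 852 ± 232 in Ctrl28 (-0.96, adjusted p = 0.00151, and -0.88, adjusted p = 0.00426), but of its 4 further probe sets 1 fell and 1 rose against Ctrl, a dim probe set at 0.95 (adjusted p = 0.0285). Chchd6, a protein of the mitochondrial cristae junction, had 599, 511 and 386 in IH28D against 767, 1088 and 920 in Ctrl and 919 ± 321 in Ctrl28 (-0.90 and -0.85). Minar2 and Ric8a, a chaperone of G protein alpha subunits, fell by 0.91 and 0.85 and were lower than in Ctrl28 by 0.94 and 1.06, but the further probe set of each, at -0.39 and -0.345 against Ctrl, did not pass. No further probe set of Asrgl1, BC004004, Chchd6, Minar2 or Ric8a passed as lower than in Ctrl28. Ces5a, S100a10 and Ifi35 of the largest falls belong here too, although the further probe sets of S100a10 and Ifi35 did not pass against Ctrl28. By list, 4 of 123 splicing factors lay above both controls and 4 below, and 4 of 87 chromatin genes lay above. Below both were 3 of 24 citric acid cycle genes, 3 of 42 cytosolic ribosomal proteins, 2 of 33 complex I genes and 2 of 24 genes of complexes II to IV, against 1.09% of all genes.

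Beside 28 days, the values after 5 days of IHT are set here against the same Ctrl arrays. In IH5D 578 genes were higher than in Ctrl (4.96%) and 107 lower (0.918%). Prpf39 had a log2 fold change of 1.93 in IH28D and 1.47 in IH5D, Meg3 1.38 and 1.03, Hif1a 0.74 and 0.71, Ndufs8 -0.94 and -0.48, and Mrps11 -1.01 and -0.70. Hspa5 had 1.07 in IH28D and 0.31 in IH5D, Fos 1.71 and 0.06, and Dbp -1.06 and -0.48. The difference between IH28D and IH5D was tested in the same limma fit and passed for 0 genes, with 790 genes at an unadjusted p below 0.05 (6.78%), so a difference between the lengths of treatment was not shown for any single gene.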

How the data were processed

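RNA of hippocampus was hybridised to Affymetrix Mouse Genome 430 2.0 arrays, 3 per group and 18 in all. The deposited table holds log2 values, which the authors made with MAS5 after scaling each array, and the software version is not given in the sources used here. Unlogged, the trimmed mean was 100.03 to 100.04 on every array. Of 45101 probe sets 34945 are annotated to 1 gene, 932 to several and 9160 to none in the platform annotation, and 64 manufacturer controls were left out. No column of per-sample values was left unused.

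Probe sets whose unlogged signal averaged over 20 on the 18 arrays, 22932 in number, were fitted with limma 3.58.1 in R 4.3.3 (lmFit and eBayes with a variance trend), as 1 model of 6 group means over 18 arrays with 12 residual degrees of freedom. P-values were two-sided and adjusted over all probe sets by Benjamini-Hochberg, with a threshold of 0.05. SE is the moderated standard error of a log2 fold change. The brightest probe set of a gene stands for it, which gives 11656 genes. The fit was tested on simulated data.

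Genes were named as the 12 largest rises and falls whose groups do not overlap and whose higher mean was at least 100. Added were the 8 largest against both controls, with no overlap of IH28D with either control. The rest were the 4 smallest p of each list and a fixed set of 28 measured genes, of which 4 rose and 4 fell. Some further list members, among them genes described for their sequence or for a single direction, were chosen after their values were seen. Rps6kb1 and Gapdh were not analysed here. The comparison, the 56 gene lists and the tests were chosen with earlier results of these data known, so they are not independent evidence. The number of arrays limits the precision, and a gene's probe sets can disagree. Alternatives were other scalings, filters, variance models and summaries of probe sets, the methods' test (Welch's ANOVA in the study, run here on unlogged signals as its equivalent for a pair of groups and called the methods' t-test), a block for the replicate number and leaving out each array in turn. The replicate numbers did not pair the arrays, with correlations of -0.0998, -0.0718 and 0.176 between same-numbered arrays.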

Additional observations from a re-analysis of the deposited data

How the results depend on the processing

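Of 199 named genes 179 passed, 103 of these kept their call and direction under every alternative but the methods' t-test with adjustment, and 135 passed without each IH28D or Ctrl array in turn. The count of genes that rose, 1980 in the model given above, was 1025 to 2448 without 1 array (1025 without Ctrl array 2, 1073 without IH28D array 2), and that of genes that fell, 1740, was 497 to 2702 (497 without Ctrl array 2, 643 without IH28D array 2, 879 without Ctrl array 3, 1062 without IH28D array 3 and 2702 without Ctrl28 array 1, which enters only through the spread). With a log2 limit of 1 the counts were 617 and 78. By the methods' t-test 1743 rose and 2094 fell at an unadjusted p below 0.05 and 0 and 0 after adjustment, where 0 and 0 also passed against both controls. The methods' t-test estimates each spread from 6 arrays alone.

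Counts against both controls moved most. The 83 genes above both were 17 to 160 without 1 array (17 without IH28D array 2, 30 without IH28D array 3, 160 without Ctrl28 array 3), 46 with no minimum signal, 7 with the compared groups alone, 51 after median centring, 54 without a variance trend, 210 with array weights, 37 with the log2 difference of 3' and 5' controls added as a covariate and 22 with a log2 limit of 1. The 127 below both were 23 to 160 without 1 array (23 without IH28D array 2, 44 without IH28D array 3, 62 without Ctrl array 2, 67 without Ctrl array 3), 50 with no minimum signal, 5 with the compared groups alone, 68 without a variance trend, 311 with array weights, 48 with that covariate, 74 with the mean of a gene's probe sets and 2 with a log2 limit of 1. With the replicate block 1895 genes rose and 1568 fell, 61 lay above both controls and 79 below, and not every array correlated best with its own number. The causes were not tested.

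Directions turned for few genes. With the mean of all probe sets Smim20 had 0.22, Atp5c1 0.04 and Ppp2ca 0.33, and after quantile normalization Calr had 0.00 and Ppp2ca 0.15. Egfr had -0.19 when a signal above 20 was required on all 6 arrays, which changes the probe set. Creld2 had -0.14 without IH28D array 3 to 0.43 without IH28D array 2, and Ttr -0.48 without Ctrl array 3 to 1.19 without Ctrl array 2.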

Other observations

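Genes of immature neurons and of growth factor signalling moved in part. For comparison, the shares over all genes were 17.0% higher and 14.9% lower. Of 27 genes of immature neurons and neurogenesis 6 rose and 2 fell. Sox11, a transcription factor of newborn neurons, had 116, 145 and 122 in IH28D against 55.7, 38.9 and 36.5 in Ctrl (1.56, adjusted p = 0.000461 in limma). Dcx, Elavl4, Ccnd2, Neurod1 and Sox4 also rose, while the tubulins Tubb2b and Tubb3 fell. Of 23 neurotrophins and growth factors 5 rose (Egfr, Igf1, Igf1r, Fgf9 and Pdgfa) and 2 fell (Tgfa and Ntrk3). Igf1, insulin-like growth factor 1, had 54.5, 54.7 and 59.2 in IH28D against 18.2, 27.6 and 21.7 in Ctrl (1.34, adjusted p = 0.00106), and was higher than in Ctrl28 as well (0.86, adjusted p = 0.0226).

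The lists not described above held 9 rises and 3 falls of 49 genes of the MAP kinase cascade, 8 and 3 of 34 of the mTOR pathway, 10 and 6 of 57 of nuclear transport, 7 and 5 of 32 of kinesin and dynein motors, 4 and 3 of 15 of microRNA processing, and 2 and 5 of 20 of amyloid precursor and secretases. Secretory granule genes had 1 and 0 of 21 and inflammatory mediators 1 and 1 of 13. Of other cell types, endothelial cells and pericytes had 3 and 3 of 27, oligodendrocyte precursors 1 and 1 of 11 and meninges 0 and 1 of 16. Markers of tissue around the hippocampus had 1 and 0 of 15 for neocortex, 3 and 1 of 14 for thalamus and habenula and 2 and 0 of 17 for striatum and septum. For comparison, 17.0% of all genes rose and 14.9% fell.

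Probe sets annotated to no gene rose more often than the rest. Of 2486 such probe sets 893 rose (35.9%) and 118 fell (4.75%), with a median log2 fold change of 0.63 in IH28D against Ctrl and 0.21 against Ctrl28. Of 19919 probe sets of 1 gene 18% rose and 12.3% fell. The unannotated probe set of largest rise had 143, 135 and 148 in IH28D against 46.9, 7.52 and 44.7 in Ctrl (2.50, adjusted p = 0.00259). The share of genes that fell went with signal, with 4.5%, 10.6%, 14%, 18% and 27.6% in 5 classes of genes by mean signal, dimmest first, while 9.73%, 16.6%, 21.5%, 20.9% and 16.3% rose. The part of signal in the pattern by gene length was not tested.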
